A study of Macaca mulatta with 27 samples.

Results

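Rhesus macaque embryonic stem cells (ESCs) cultured with the E-NHSM protocol were compared with the primed ESCs from which such cultures are made. The members are the 3 E-NHSM libraries and the 6 primed libraries, 9 of the 27 bulk RNA-seq libraries of the series, and all genes of the deposited count tables entered the comparison. E-NHSM cells retained POU5F1, so the account centres on what changed in cells that kept this pluripotency factor, above all the genes that answer to MEK-ERK signalling, the extracellular matrix, and metabolism.

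Every group of the series derives from LyonES-tGFP-(S3), a clonal rhesus ESC line that carries a tauGFP transgene driven by the CAG promoter and a lentiviral STAT3-ER T2 transgene, a STAT3 whose activity requires tamoxifen. E-NHSM and primed cells therefore carry both transgenes. Per the study, the E-NHSM protocol was applied without tamoxifen, which left STAT3-ER T2 inactive, and primed cells are not described as receiving tamoxifen. The labels call the primed libraries primed cells and the E-NHSM libraries naive cells, and the composition of the E-NHSM medium is not given in the sources used here. Per the study, primed cells were passaged as mechanically detached clumps and reprogrammed cells as enzymatically dissociated single cells, so medium and passaging cannot be told apart. All libraries come from 1 clone, and nothing in the labels states that replicates were separate cultures, so p-values measure only the spread between these libraries, which may be technical.

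Primed pluripotent stem cells resemble the epiblast around gastrulation and are maintained by FGF and Activin signals, whereas naive cells resemble the earlier epiblast and are commonly cultured with inhibitors of MEK. FGF receptors activate the RAS, RAF, MEK, and ERK kinases in turn. ERK then induces transcription factors such as EGR1 within minutes and, with them, its own inhibitors, the DUSP phosphatases and the Sprouty and Spred proteins. The RNA of these feedback genes is widely used as a readout of recent ERK activity. Pluripotent cells also deposit and bind a matrix of laminins, collagens, and fibronectin, and primed cells rely strongly on glycolysis.

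The libraries held between 17555947 and 20760914 counts in E-NHSM cells and between 7111886 and 15183387 counts in primed cells, so the E-NHSM levels rest on the deeper libraries. The names of the primed columns carry the letters J and K, 3 libraries each, and 3.73% of 12559 genes differed between the letters at an adjusted p under 0.05 (edgeR). The share was higher in several lists described here, with 6 of 22 pluripotency, 5 of 17 primed-state, 9 of 53 MEK-ERK feedback, 7 of 75 matrix, and 7 of 24 contractile genes. SOX2 was lower in J than in K (log2 difference -0.51), and CDH1 (1.18), COL1A1 (0.83), and EGR1 (0.44) were higher in J. Where a comparison with 1 letter alone changed a call named here, its value stands beside the gene. At the low end, E-NHSM libraries listed between 3913 and 4279 genes at 0 and primed libraries between 4122 and 5635. There were 9 genes, NR4A3 and CLCF1 among them, at 0 in all 3 E-NHSM libraries although every other group of the series averaged over 20 counts, against 0 such genes in 6 of the other groups and 1 in t2iLGöY. Genes at 1 to 5 counts numbered 189 to 364 in E-NHSM libraries and 236 to 602 in primed libraries. Those at 11 to 15 counts numbered 323 to 389 and 327 to 448. The lower counts were thus the rarer ones in all 3 E-NHSM libraries. The same held in primed libraries J3, K1, and K3, whereas J1, J2, and K2 showed the reverse. The reason was not tested. A listed 0 in either group is therefore less firm than its depth implies, in E-NHSM cells also because of the 9 genes. Folds against a group at 0 are given as lower bounds, computed against 3 counts over the group, and bounds and counting intervals cover counting error only. In bulk RNA, fewer cells of a type and less RNA per cell cannot be told apart.

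Of 13304 genes tested with edgeR's quasi-likelihood test, 3486 differed between E-NHSM and primed cells at a Benjamini-Hochberg adjusted p under 0.05. The 1476 genes higher in E-NHSM cells were 11.1% of those tested, and the 2010 lower genes were 15.1%. The median log2 fold change over all genes tested was 0.02. Upper-quartile normalization gave 1879 higher and 1713 lower genes. The number of higher genes fell to 978, 983, and 977 when E-NHSM library 1, 2, or 3 was left out, and remained between 1371 and 1777 when a primed library was left out. Across functional gene lists, MEK-ERK feedback, matrix, contractile, and mesenchymal genes were shifted downward, and ribosomal, oxidative phosphorylation, and amino acid stress genes upward.

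**Figure D1:**
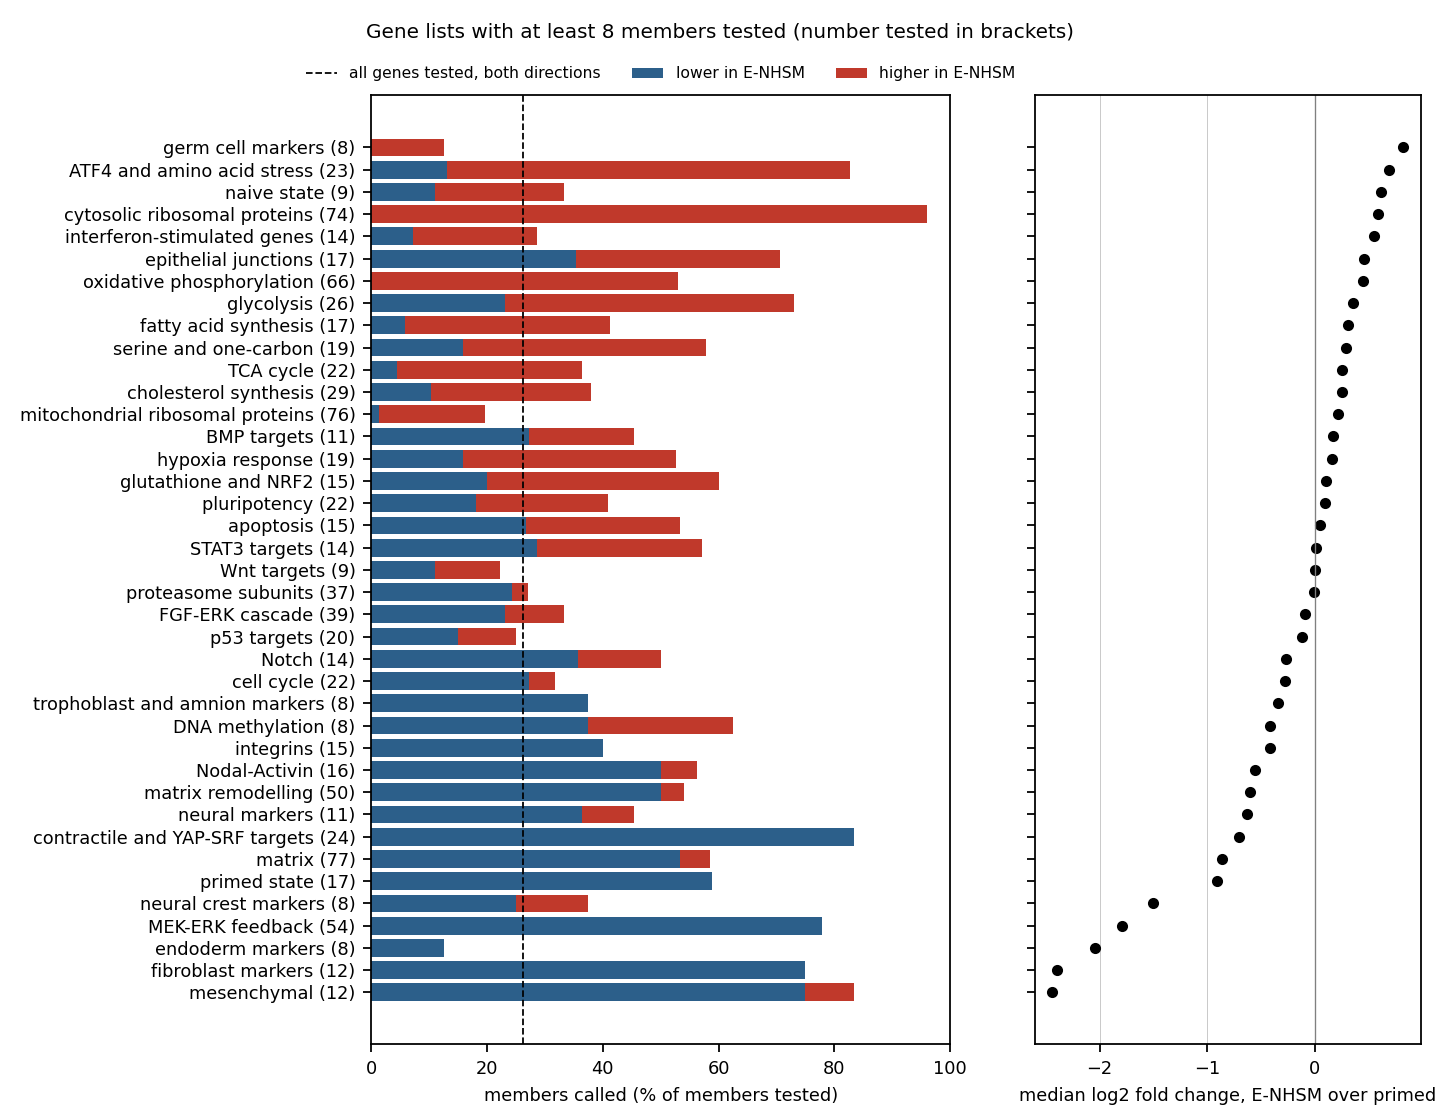
Gene lists with at least 8 members tested, ordered by their median log2 fold change in E-NHSM over primed cells. Bars give the percentage of tested members called lower (blue) or higher (red), the dashed line marks the percentage of all tested genes called in either direction, and dots give the list median, which is -1.79 for MEK-ERK feedback and 0.59 for cytosolic ribosomal proteins.

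Pluripotency genes were retained in E-NHSM cells. POU5F1, a core pluripotency factor, measured 1334, 1376, and 1322 CPM (counts scaled to library size in edgeR, with TMM factors, so that libraries can be compared) in the 3 E-NHSM libraries, against a lowest, median, and highest primed value of 1080, 1162, and 1288. The E-NHSM values thus sat just above the primed ones, with a log2 fold change of 0.20 ± 0.06 (SE, edgeR adjusted p = 0.0139), and the call was lost without E-NHSM library 2 (0.19) or with all 8 groups in one fit (0.21). SOX2, its partner factor, ranged from 378 to 403 CPM in E-NHSM and from 212 to 333 in primed cells (log2 fold change 0.55 ± 0.12, adjusted p = 0.00267). SALL4, a zinc-finger factor of the same network, also rose, by 0.52 ± 0.10 (adjusted p = 0.000444). NANOG, with values of 141, 172, and 186 CPM against 106 to 156, was not called (log2 fold change 0.33 ± 0.12, adjusted p = 0.0583), but the call depended on the setting. NANOG was called higher with DESeq2 (0.34), with upper-quartile normalization (0.40), with no filter (0.34), with at least 10 counts in every library (0.35), against letter J alone (0.40) or letter K alone (0.28), and without E-NHSM library 1 (0.45) or primed library J2 (0.38). PRDM14, a repressor of differentiation in human ESCs, fell from 273 ± 55.5 to 92.8 ± 6.26 CPM (mean ± SD, n = 6 and 3; log2 fold change -1.56 ± 0.15, adjusted p = 3.15e-07). L1TD1, another gene of pluripotent cells, fell from 1241 ± 85.6 to 711 ± 63.9 CPM (-0.80 ± 0.07, adjusted p = 1.45e-07). Among all 22 pluripotency genes tested, 5 (22.7%) were higher and 4 (18.2%) lower, and their median was 0.09. Over all genes, 11.1% were higher and 15.1% lower. POU5F1 and NANOG have processed pseudogenes in primates, so reads shared with such copies leave their absolute levels uncertain.

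Few naive-state genes were expressed in the E-NHSM libraries, although the labels call them naive. Of 19 such genes in the table only 9 had counts enough to be tested, and 2 of these were higher and 1 lower. KLF4, a naive-state factor, measured 12.1, 6.82, and 10.9 CPM in E-NHSM cells and 0 to 2.42 in primed cells (log2 fold change 3.64 ± 0.74, adjusted p = 0.00125), a rise between low levels. TFCP2L1, another naive-state factor, reached 3.54, 7.04, and 5.18 CPM against 0 to 1.96 (adjusted p = 0.0273), a call that was lost without any 1 of the E-NHSM libraries (log2 fold change 2.41 to 2.90) or with all 8 groups in one fit (2.68). By contrast KLF17 and DPPA5, which mark human naive cells, did not exceed 0.370 and 1.04 CPM in any E-NHSM library. TFAP2C (log2 fold change -0.54, adjusted p = 0.345) and TFE3 (0.26, adjusted p = 0.122), further factors linked to the naive state, were not called, and ZFP57, an imprint-maintaining zinc-finger protein, fell by 0.83 (adjusted p = 0.0222), a call lost against letter J alone (-0.34), with all 8 groups in one fit (-0.83), and without E-NHSM library 1 (-0.74) or 2 (-0.81) or primed library K2 (-0.71). TFAP2C was called lower against letter K alone (-0.99), and TFE3 higher with all 8 groups in one fit (0.27). Among primed-state genes, 10 of 17 fell and 0 rose, beside 15.1% of all genes lower and 11.1% higher. The falls included the cell surface glycoprotein THY1 (-2.54 ± 0.19, adjusted p = 2.09e-08) and the neuroectodermal factor ZIC2 (-1.03 ± 0.08, adjusted p = 5.11e-08). They are not separate from results given below. DUSP6 and CDH2, which also fell, are counted again as MEK-ERK feedback and mesenchymal genes, and THY1 as a fibroblast marker. OTX2, a factor of the primed epiblast, measured 106 to 116 CPM against 94.2 to 150.0 and was not called (adjusted p = 0.465).

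MEK-ERK feedback and target genes fell broadly in E-NHSM cells. Of the 58 genes of this list 56 were in the table and 54 were tested, of which 42 fell, 0 rose, and 12 were not called. The share that fell, 77.8%, stands beside 15.1% of all genes. The list median was -1.79, against 0.02 over all genes. The libraries of the 2 groups did not overlap for any of the 42 genes except DUSP1, FOSL2, and IER3, and 15.1% of all genes lay lower in E-NHSM cells without overlap. AREG and EREG, EGF receptor ligands, had too few counts to be tested.

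**Figure D2:**
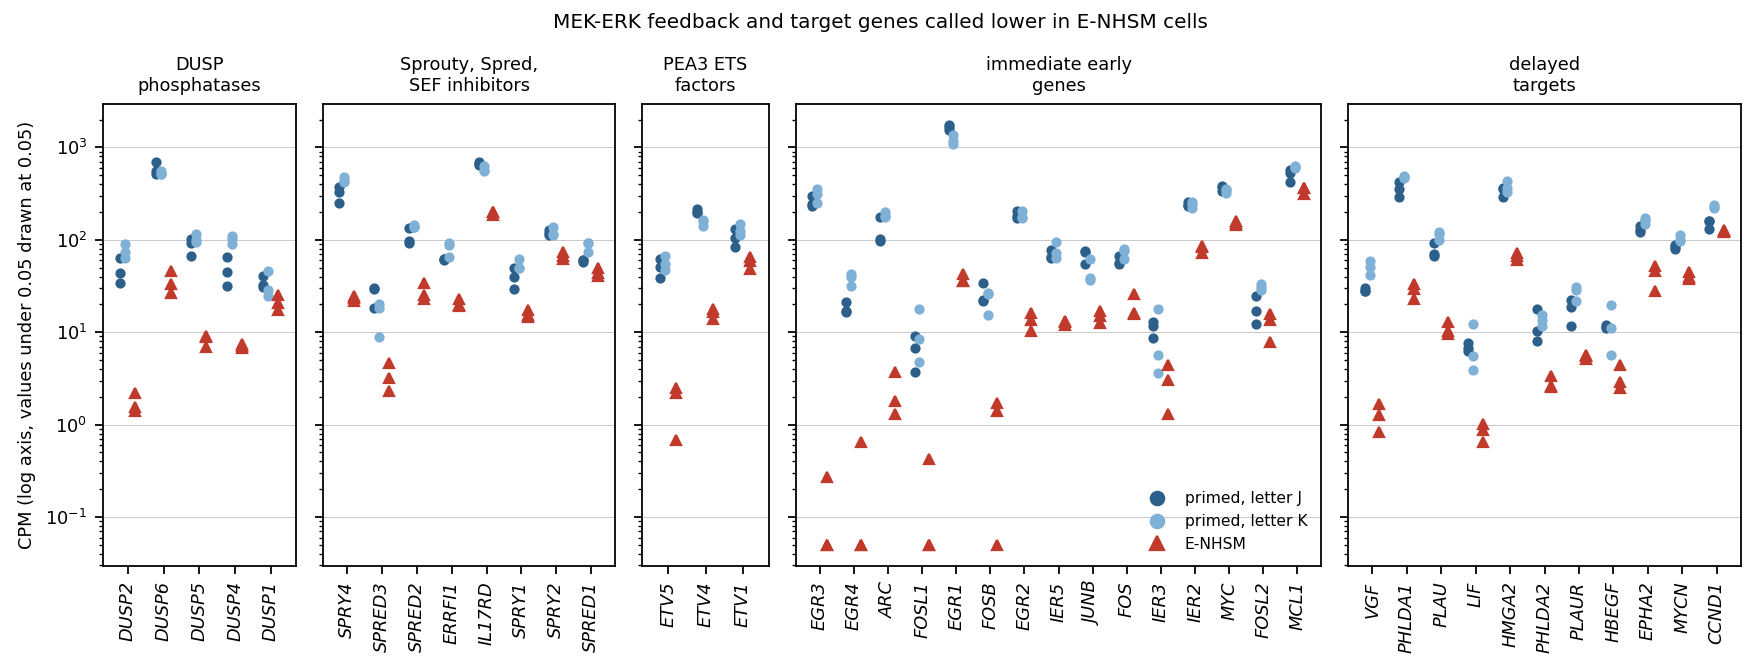
CPM on a log axis in each library for the 42 MEK-ERK feedback and target genes called lower, grouped by role. Circles are primed libraries, dark for letter J and light for letter K, and triangles are E-NHSM libraries, with values under 0.05 drawn at 0.05. EGR1 lies at 36.0 to 43.2 CPM in E-NHSM cells and at 1094 to 1753 in primed cells, and only DUSP1, FOSL2, and IER3 overlap.

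Phosphatases that switch off ERK were the first of these roles. DUSP6, which dephosphorylates ERK in the cytoplasm, measured 26.3, 46.3, and 33.1 CPM in E-NHSM cells, against a lowest, median, and highest primed value of 519, 535, and 691. The highest E-NHSM value was far under the lowest primed one, and the log2 fold change was -3.99 ± 0.16 (edgeR adjusted p = 9.55e-12). DUSP5, a nuclear ERK phosphatase, measured 6.84, 9.0, and 8.78 CPM against 67.4 to 115 (log2 fold change -3.55 ± 0.19, adjusted p = 2.17e-10). The nuclear phosphatases DUSP4 and DUSP2 fell as well, DUSP4 with a log2 fold change of -3.38 ± 0.35 (adjusted p = 8.23e-07) and DUSP2 by 5.15 ± 0.33 (adjusted p = 2.97e-09). DUSP1, a stress-induced phosphatase of all MAP kinases, fell less, from 33.8 ± 7.86 to 21.2 ± 4.14 CPM, and its groups overlapped (adjusted p = 0.0265). Its call was lost without E-NHSM library 1 (log2 fold change -0.54) or 2 (-0.65) or primed library K1 (-0.56). The other 5 phosphatases were not called, with log2 fold changes of -0.63 for DUSP10, -0.03 for DUSP7, 0.14 for DUSP16, 0.54 for DUSP14, and 0.66 for DUSP8. DUSP10 was called lower against letter J alone (-1.05). DUSP10, DUSP8, and DUSP16 act mainly on the JNK and p38 kinases.

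Inhibitors that act upstream of MEK fell in 8 of 9 cases. SPRY4, which blocks the relay from receptors to RAF, measured 24.4, 21.9, and 23.3 CPM in E-NHSM cells and 249 to 482, with a median of 402, in primed cells. The E-NHSM values were close together and far under the lowest primed value, and the log2 fold change was -4.04 ± 0.18 (adjusted p = 4.64e-11). IL17RD, known as SEF and an antagonist of FGF receptor signalling, fell from 629 ± 53.6 to 195 ± 7.67 CPM (-1.69 ± 0.08, adjusted p = 1.13e-10). The RAS-RAF inhibitors SPRED1, SPRED2, and SPRED3 fell by 0.70, 2.17, and 2.62 on the log2 scale, SPRED1 without a call against letter J alone (-0.40). SPRY1 and SPRY2 fell by 1.56 and 0.84, and ERRFI1, an inhibitor of EGF receptors, by 1.80. SPRY3 was not called, at 0.13 ± 0.43 (adjusted p = 0.872). PEA3-type ETS factors, direct transcriptional effectors of FGF-ERK signalling, fell in 3 of 3 cases. ETV4 measured 14.0, 16.8, and 18.0 CPM against 143 to 216 (-3.46 ± 0.16, adjusted p = 4.95e-11). ETV5 measured 2.19, 2.51, and 0.688 CPM against 38.6 to 66.0 (-4.87 ± 0.33, adjusted p = 4.16e-09), and ETV1 fell by 1.02 ± 0.16 (adjusted p = 8.04e-05).

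Immediate early genes, whose transcription starts without new protein synthesis, fell in 15 of 16 cases. EGR1, a zinc-finger factor induced through ERK and SRF, measured 36.0, 36.0, and 43.2 CPM in E-NHSM cells against a lowest, median, and highest primed value of 1094, 1467, and 1753. No E-NHSM library came near the primed range, and the log2 fold change was -5.22 ± 0.16 (adjusted p = 3.2e-13). Its relative EGR3 measured 0, 0.273, and 0 CPM against 230.5 to 353, the largest estimated fall among genes with an average log2 CPM of at least 3 (-11.54 ± 0.36, adjusted p = 3.2e-13). EGR2 fell from 186 ± 16.4 to 13.3 ± 2.89 CPM (-3.80 ± 0.15), and EGR4 from 28.2 ± 11.5 to 0.217 ± 0.376 (-6.87 ± 0.70). EGR3 and EGR4 each had reads in only 1 E-NHSM library, at 0.273 and 0.652 CPM. There 3 counts correspond to 0.140 to 0.164 CPM, so the sizes of these 2 falls are imprecise. ARC, a synaptic plasticity gene that is also a standard SRF target, measured 3.68, 1.31, and 1.80 CPM against 97.2 to 202 (-6.09 ± 0.34, adjusted p = 4.72e-10). The AP-1 subunits fell by amounts from 0.98 for FOSL2 to 5.68 for FOSL1, with FOS at 1.78, JUNB at 1.94, and FOSB at 4.57. IER2, IER3, and IER5, early genes of less defined function, fell by 1.59, 1.75, and 2.51. The call of FOSL2 was lost without E-NHSM library 1 or 3 or any 1 of the K libraries (log2 fold change -0.73 to -1.06) and against letter J alone (-0.53), and that of IER3 without E-NHSM library 2 or 3 or primed library K1 (-1.40 to -1.78). MYC, a growth-promoting factor, fell from 353 ± 21.9 to 152 ± 8.43 CPM (-1.21 ± 0.08, adjusted p = 6.05e-09), and MCL1, which blocks apoptosis, by 0.69 ± 0.11. KLF6, a zinc-finger factor, was not called (-0.14 ± 0.12, adjusted p = 0.458).

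Delayed target genes fell in 11 of 16 cases. PHLDA1, a sensitive marker of ERK output in many cell types, measured 29.4, 33.1, and 23.1 CPM in E-NHSM cells and 290 to 496, with a median of 443, in primed cells. The gap between the groups was about as wide as for DUSP6, with a log2 fold change of -3.87 ± 0.18 (adjusted p = 4.95e-11). VGF, a neuropeptide precursor, fell by 4.98 ± 0.36 (adjusted p = 9.57e-09). PLAU, the urokinase protease, and PLAUR, its receptor, fell by 3.11 ± 0.22 and 2.04 ± 0.30. HMGA2, a chromatin protein of embryonic cells, fell from 357 ± 48.7 to 66.3 ± 6.03 CPM (-2.43 ± 0.12, adjusted p = 1.26e-10). The growth factors LIF and HBEGF fell by 3.04 and 1.85, PHLDA2, an imprinted growth regulator, by 2.16, the receptor EPHA2 by 1.79, MYCN by 1.20, and the G1 cyclin CCND1 by 0.61, the last not called against letter J alone (-0.26). The 5 genes not called were GDF15, SPHK1, EPHA4, UPP1, and TGFA, at log2 fold changes of -1.07, -0.51, 0.56, 1.02, and 2.13, and EPHA4 was called higher without primed library J3 (0.72) or with all 8 groups in one fit (0.57). GDF15 was called lower against letter K alone (-1.70), and UPP1 higher with all 8 groups in one fit (1.02) or with at least 10 counts in every library (1.03). TGFA, another EGF receptor ligand, was at or under 1.96 CPM in all libraries.

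The kinases and receptors that feed this pathway moved in both directions. Of 39 genes of the FGF-ERK cascade 4 (10.3%) were higher and 9 (23.1%) lower, with a median of -0.09. Over all genes, 11.1% were higher and 15.1% lower. Among 22 adaptors and kinases 2 (9.09%) were higher and 3 (13.6%) lower, near the shares of all genes, with a median of 0.00. ERK1 (MAPK3) rose by 0.64 ± 0.15 (adjusted p = 0.00361) and MEK2 (MAP2K2) by 0.43 ± 0.09 (adjusted p = 0.00123), while the adaptor SHC1 fell by 0.94 ± 0.08 (adjusted p = 9.33e-08) and RASA1, a RAS-inactivating protein, by 0.87 ± 0.14 (adjusted p = 9.26e-05). MAP2K1 (MEK1), named after its values were seen, was at -0.01 ± 0.11. Of 12 receptors and co-receptors 2 were higher and 5 lower. ERBB2, a co-receptor for EGF family ligands, measured 347, 352, and 316 CPM in E-NHSM cells against 969 to 1321 in primed cells (-1.80 ± 0.09, adjusted p = 9.43e-11), and its partner ERBB3 rose by 1.09 ± 0.15 (adjusted p = 3.23e-05). FGFR1 fell by 0.52 ± 0.07 (adjusted p = 2.97e-05) and FGFR2 rose by 0.38 ± 0.13 (adjusted p = 0.0326), a call lost without any 1 of the E-NHSM libraries or primed library J1 (0.36 to 0.41) and against letter K alone (0.23). FGF2, the ligand that sustains primed cells, was not called, at 157 ± 14.8 against 195 ± 61.6 CPM (adjusted p = 0.282), but was called lower against letter K alone (-0.65) or without primed library J3 (-0.44).

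Matrix genes fell as well. Of 77 matrix genes tested 41 (53%) fell and 4 (5.2%) rose, with a median log2 fold change of -0.86. The shares over all genes were 15.1% lower and 11.1% higher. Among the fibrillar collagens 6 of 9 fell. COL1A1, the main chain of type I collagen, measured 177, 200.0, and 196 CPM in E-NHSM cells against a lowest, median, and highest primed value of 639, 1355, and 1798. E-NHSM values varied little while primed values spread widely, and the log2 fold change was -2.74 ± 0.24 (adjusted p = 1.5e-07). COL1A2, the second chain, fell less, by 1.23 ± 0.12 (adjusted p = 7.05e-07), and COL3A1 of type III collagen by 3.36 ± 0.33 (adjusted p = 6.03e-07). Of the basement membrane collagens 3 of 8 fell, with a median of -0.36, and 11 of 13 laminins and linkers fell. LAMC1, the gamma chain shared by most laminins, measured 146, 162, and 152 CPM against 328 to 386 (-1.24 ± 0.08, adjusted p = 3.66e-09).

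Among other matrix glycoproteins and proteoglycans 17 of 35 fell and 2 rose, beside 15.1% of all genes lower and 11.1% higher. THBS1, thrombospondin 1, measured 372, 398, and 336 CPM in E-NHSM cells against 2258, 2956, and 3825 as the lowest, median, and highest primed values. The groups were separated by a wide gap, with a log2 fold change of -3.01 ± 0.14 (adjusted p = 5.47e-11). FBN1, fibrillin of the elastic microfibrils, fell by 2.47 ± 0.18 (adjusted p = 1.57e-08). FN1, fibronectin, named after its values were seen, fell from 1244 ± 322 to 342 ± 5.60 CPM (-1.86 ± 0.17, adjusted p = 2.32e-07). The genes that rose were COL6A3, a chain of microfibrillar collagen VI (1.88 ± 0.21, adjusted p = 1.94e-06), COL14A1, a fibril-associated collagen (1.98 ± 0.65, adjusted p = 0.0309), HAPLN3, a hyaluronan link protein (1.00 ± 0.14, adjusted p = 3.03e-05), and LTBP4, which stores latent TGF-beta (0.77 ± 0.21, adjusted p = 0.00953). COL6A3 measured 120, 106, and 102 CPM against 14.9 to 42.3. The call of COL14A1 was lost without any 1 of the E-NHSM or K libraries (log2 fold change 1.80 to 2.12), against letter J alone (1.54), and after thinning to the smallest total (1.86), and that of LTBP4 without E-NHSM library 1 (0.70).

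**Figure D3:**
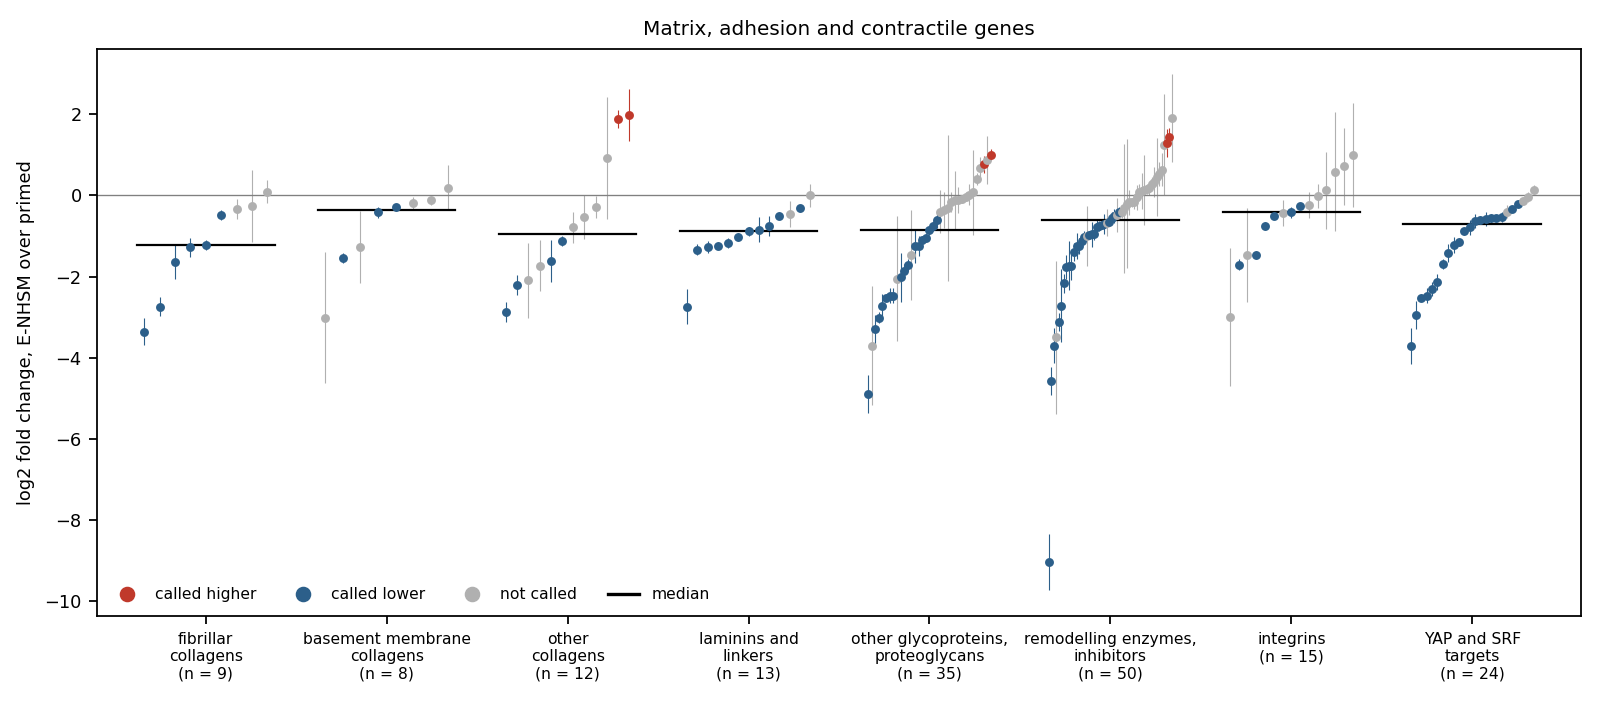
Log2 fold change of E-NHSM over primed cells, with its standard error, for each tested matrix, adhesion, and contractile gene, grouped by role. Red and blue points were called higher and lower, grey points were not called, and black lines are medians, which lie below 0 in every group. The lowest point is MMP1 at -9.04.

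Enzymes and inhibitors that remodel the matrix fell in 25 of 50 cases (50%) and rose in 2 (4%). These shares, and those of the integrins below, stand beside 15.1% of all genes lower and 11.1% higher. MMP1, interstitial collagenase, had 1 count in all E-NHSM libraries together and 9.74 to 21.6 CPM in primed libraries, a ratio of 811 with a 95% counting interval of 146 to 32020 (adjusted p = 1.96e-08). SERPINH1, the collagen chaperone, fell by 0.66 ± 0.07 (adjusted p = 6.81e-07). PLAU, also among those that fell, was already counted as a MEK-ERK target. MMP17, a membrane-anchored metalloproteinase, and PCOLCE, an enhancer of procollagen processing, rose by 1.44 ± 0.23 (adjusted p = 0.000136) and 1.29 ± 0.35 (adjusted p = 0.0111), the latter not without E-NHSM library 2 (1.23). Of the matrix receptors, 6 of 15 integrins fell and 0 rose. ITGB1, the common beta chain, went from 971 ± 126 to 351 ± 21.5 CPM (-1.47 ± 0.10, adjusted p = 3.66e-09), and ITGAV, a vitronectin and fibronectin receptor chain, fell by 1.71 ± 0.13 (adjusted p = 1.97e-08).

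Contractile genes and targets of YAP and SRF, factors that respond to cell tension, fell in 20 of 24 cases and rose in 0. Of all genes 15.1% fell and 11.1% rose. The 10 YAP targets had a median of -1.91, with 9 lower, and the 14 SRF targets one of -0.56, with 11 lower. CTGF, the standard YAP target and itself a matrix protein, measured 383, 404, and 328 CPM against 1923 to 2350 (-2.52 ± 0.08, adjusted p = 4.12e-13). CYR61, its paralog, fell by 2.47 ± 0.19 (adjusted p = 2.48e-08), AMOTL1, a YAP-binding angiomotin, by 1.69 ± 0.12 (adjusted p = 1.08e-08), and TPM1, a tropomyosin of actin filaments, from 552 ± 130.4 to 112 ± 4.71 CPM (-2.30 ± 0.17, adjusted p = 1.3e-08).

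Cadherins and mesenchymal factors changed alongside. Of 12 mesenchymal genes 9 fell and 1 rose. This count, and that of the epithelial genes below, stands beside 15.1% of all genes lower and 11.1% higher. CDH2, N-cadherin, measured 42.6, 39.9, and 38.4 CPM against 198 to 353 (-2.71 ± 0.18, adjusted p = 4.1e-09), and CDH11, a cadherin of mesenchyme, fell by 2.82 ± 0.20 (adjusted p = 9.33e-09). ZEB1 and ZEB2, repressors of E-cadherin, fell by 2.58 ± 0.24 and 2.12 ± 0.20 (adjusted p = 3.03e-07 and 3.76e-07). TWIST1, a mesenchymal factor, went the other way, with 48.8, 41.8, and 38.4 CPM against 1.28 to 12.7 (3.14 ± 0.52, adjusted p = 0.00016). Epithelial junction genes were split, with 6 of 17 higher and 6 lower. CDH1, E-cadherin, measured 214, 230.4, and 239 CPM in E-NHSM cells and 30.1, 65.4, and 107 as the lowest, median, and highest primed values. Every E-NHSM library was above the highest primed library, and the log2 fold change was 1.74 ± 0.26 (adjusted p = 6.68e-05). CLDN7 rose by 2.63 ± 0.43 (adjusted p = 0.000163) and EPCAM by 0.46 ± 0.10 (adjusted p = 0.00276), whereas CLDN6, a claudin of pluripotent cells, fell by 0.63 ± 0.07 (adjusted p = 2.96e-06) and the desmosomal DSP by 0.74 ± 0.09 (adjusted p = 4.37e-06).

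Markers of fibroblasts moved in the same direction as the matrix genes. Of 15 such markers 12 were tested, 9 fell, and 0 rose, beside 15.1% of all genes lower and 11.1% higher. Of the 9, 4 (COL1A1, COL1A2, COL3A1, and the crosslinking enzyme LOX) also stand in the matrix lists above. Their summed level was 425 to 476 CPM in E-NHSM cells and 1203 to 2777 CPM in primed cells. The defining markers DCN and LUM were at 0 in all 9 libraries. PRRX1, a limb mesenchyme factor, fell by 4.31 (adjusted p = 3e-06). S100A4, a fibroblast calcium-binding protein, had 1 count over the 3 E-NHSM libraries and 13.2, 53.7, and 139 CPM as the lowest, median, and highest primed values, a ratio of 3597 with a 95% counting interval of 646 to 142100. All 3 libraries of letter J, at 87.7 to 139 CPM, lay above those of letter K, at 13.2 to 19.7. The part of other cell types in the matrix result was not tested.

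Genes of the energy and protein machinery rose by small amounts across many members. Of 66 tested genes of oxidative phosphorylation 35 rose and 0 fell, beside 11.1% of all genes higher and 15.1% lower. A positive log2 fold change was found for 64, and the median was 0.45. The rises were found in complex I (16 of 36), complexes II to IV (10 of 16), and the ATP synthase (9 of 14). ATP5O, the stalk subunit of the ATP synthase, measured 168, 186, and 183 CPM in E-NHSM cells against 105 to 116 in primed cells. The groups were narrow and apart, with a log2 fold change of 0.70 ± 0.09 (adjusted p = 1.23e-05). ATP5A1, the alpha subunit, rose by 0.40 ± 0.06 (adjusted p = 2.31e-05), NDUFA7 of complex I by 1.03 ± 0.19 (adjusted p = 0.000459), and UQCRH of complex III by 0.68 ± 0.13 (adjusted p = 0.000526). Only 2 of the 66 genes passed when a log2 fold change of at least 1 was also required.

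Cytosolic ribosomal protein genes, a list added after the values were seen, rose in 71 of 74 cases, with log2 fold changes between 0.07 and 0.89 and a median of 0.59. RPLP0, of the ribosomal stalk, measured 1688, 1602, and 1591 CPM against 827 to 1001 (0.87 ± 0.06, adjusted p = 1.16e-08). Ribosomal protein genes have many processed pseudogenes, and how reads shared with them were counted is not given in the sources used here. The mitochondrial ribosomal proteins, added in the same way, rose in 14 of 76 cases (18.4%) and fell in 1 (1.3%), with a median of 0.21. Proteasome subunits rose in 1 of 37 cases (2.7%) and fell in 9 (24.3%), with a median of -0.01. Both lists were much nearer the shares of all genes, 11.1% higher and 15.1% lower, than the cytosolic list, of which 96% rose. 

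**Figure D4:**
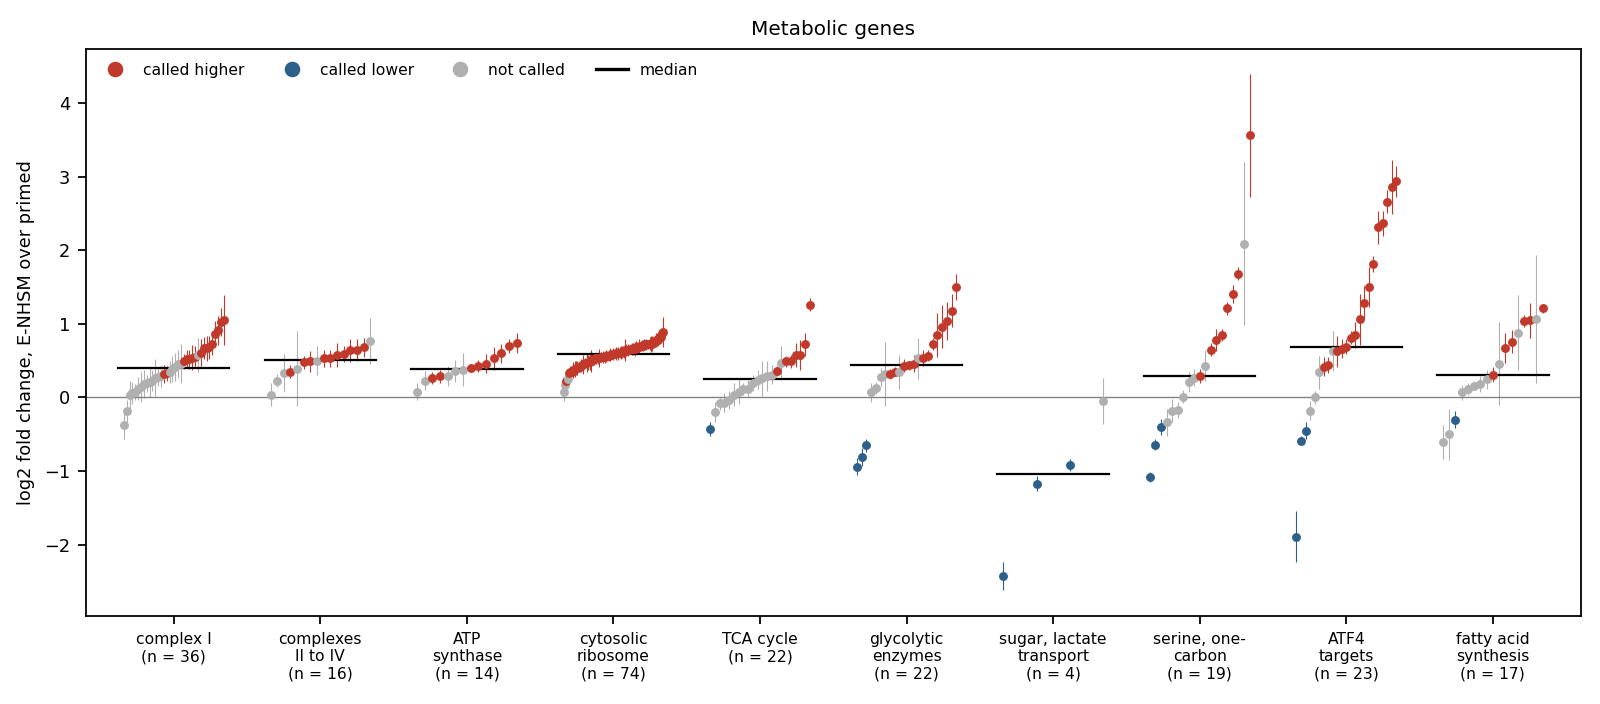
Log2 fold change of E-NHSM over primed cells, with its standard error, for each tested gene of the named metabolic lists and of the cytosolic ribosome. Red and blue points were called higher and lower, grey points were not called, and black lines are medians. Most points of complex I, the ATP synthase, and the cytosolic ribosome lie between 0 and 1, whereas sugar and lactate transport has a median of -1.04.

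Glycolysis was split between its enzymes and its transporters. Among 22 enzymes and switch kinases 13 (59.1%) rose and 3 (13.6%) fell, with a median of 0.43. Of all genes 11.1% rose and 15.1% fell. PFKP, the platelet-type phosphofructokinase, measured 355, 321, and 341 CPM in E-NHSM cells against 72.1, 116, and 163 as the lowest, median, and highest primed values. All E-NHSM libraries were well above that range, and the log2 fold change was 1.50 ± 0.18 (adjusted p = 4.15e-06). PGK1 rose by 0.73 ± 0.08 (adjusted p = 1.44e-06), ALDOA by 0.57 ± 0.08 (adjusted p = 6.04e-05), and GAPDH by 0.44 ± 0.06 (adjusted p = 1.96e-05). PFKFB3, which makes an activator of phosphofructokinase, fell by 0.94 ± 0.12 (adjusted p = 1.16e-05). Of the 4 transporters 3 fell. SLC2A1, the glucose transporter GLUT1, measured 215, 163, and 182 CPM against 668 to 1281 (-2.43 ± 0.19, adjusted p = 2.08e-08), SLC2A3, GLUT3, fell by 1.17 ± 0.10 (adjusted p = 5.15e-08), and SLC16A1, the lactate transporter MCT1, by 0.92 ± 0.08 (adjusted p = 1.49e-07). Primed letters J and K differed in 9 of 26 glycolysis genes, each higher in J, and in 0 of 66 genes of oxidative phosphorylation.

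Targets of ATF4, the factor that answers amino acid shortage and other stresses, rose in 16 of 23 cases and fell in 3, with a median of 0.69. The share that rose, 69.6%, stands beside 11.1% of all genes, and the share that fell, 13.0%, beside 15.1%. ASNS, asparagine synthetase, measured 727, 677, and 717 CPM in E-NHSM cells against 150.0, 197, and 249 as the lowest, median, and highest primed values. The lowest E-NHSM value was well above the highest primed one, with a log2 fold change of 1.81 ± 0.11 (adjusted p = 9.97e-10). TRIB3, a pseudokinase induced by ATF4, measured 79.0, 59.0, and 59.7 CPM against 6.11 to 11.5 (2.94 ± 0.21, adjusted p = 1.08e-08). SLC1A4, a transporter of small neutral amino acids, rose by 2.66 ± 0.16 (adjusted p = 1.24e-09) and SESN2, a leucine-sensing inhibitor of mTORC1, by 2.37 ± 0.17 (adjusted p = 7.59e-09). SLC7A5, the large neutral amino acid transporter and itself an ATF4 target, fell by 0.59 ± 0.06 (adjusted p = 1.46e-06), as did the collagen receptor DDR2 by 1.89 ± 0.35 (adjusted p = 0.000462).

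Serine and one-carbon enzymes rose in 8 of 19 cases (42.1%) and fell in 3 (15.8%), and several of those that rose are also ATF4 targets. Of all genes 11.1% rose and 15.1% fell, so the share that fell was near that of all genes. PSAT1, of serine synthesis, measured 743, 695, and 717 CPM against 194 to 264 (1.68 ± 0.09, adjusted p = 1.76e-10). PHGDH, the first enzyme of that route, rose by 0.85 ± 0.08 (adjusted p = 1.95e-07), and the mitochondrial enzymes SHMT2 and MTHFD2 by 1.21 ± 0.09 (adjusted p = 2.18e-08) and 1.41 ± 0.12 (adjusted p = 5.29e-08). MTHFD1, the cytosolic counterpart of MTHFD2, fell by 0.64 ± 0.08 (adjusted p = 6.77e-06), and MAT2A, which makes S-adenosylmethionine, fell from 594 ± 25.2 to 281 ± 24.4 CPM (-1.08 ± 0.07, adjusted p = 5.52e-09).

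Lipid and TCA cycle genes rose in part. All counts in this paragraph stand beside 11.1% of all genes higher and 15.1% lower. For fatty acid synthesis 6 of 17 genes rose and 1 fell. SCD, the stearoyl-CoA desaturase, measured 784, 772, and 793 CPM against 312 to 357 (1.21 ± 0.06, adjusted p = 1.76e-10), and ACACA, which makes malonyl-CoA, rose by 1.04 ± 0.08 (adjusted p = 4.37e-08). Of the cholesterol list, 3 of 19 synthesis enzymes rose and 1 fell, and 5 of 10 uptake genes and SREBP regulators rose and 2 fell, beside 11.1% of all genes higher and 15.1% lower, with the sterol-responsive factor SREBF1 at 1.51 ± 0.19 (adjusted p = 7.53e-06) and the synthesis enzyme SQLE at -0.68 ± 0.11 (adjusted p = 0.000139). In the TCA cycle list 7 of 22 rose and 1 fell. IDH1, the cytosolic isocitrate dehydrogenase, measured 319, 329, and 351 CPM against 121 to 155 (1.26 ± 0.09, adjusted p = 9.33e-09), and MDH1, the cytosolic malate dehydrogenase, fell by 0.43 ± 0.10 (adjusted p = 0.00326). Hypoxia-response genes rose in 7 of 19 cases (36.8%) and fell in 3 (15.8%), the latter near the share of all genes. DDIT4, an mTORC1 inhibitor also induced by other stresses, rose by 3.16 ± 0.23 (adjusted p = 9.82e-09), whereas ADM, adrenomedullin, fell by 4.28 ± 0.36 (adjusted p = 8.34e-08). ANGPTL4 was at 0 in the E-NHSM libraries, at least 37.9-fold lower. SLC2A1, also lower, was already counted among the glycolysis genes. NRF2 targets rose in 6 of 15 cases (40%) and fell in 3 (20%). TKT of the pentose phosphate pathway was among the first (0.56 ± 0.07, adjusted p = 4.48e-06) and GCLC of glutathione synthesis among the second (-0.91 ± 0.14, adjusted p = 8.56e-05). MT2A, a metallothionein, fell from 28.2 ± 2.29 to 1.63 ± 1.02 CPM (-4.09 ± 0.34, adjusted p = 6.5e-08).

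In other signalling pathways, the Nodal-Activin list was shifted downward, with 8 of 16 genes lower, 1 higher, and a median of -0.56, beside 15.1% of all genes lower. INHBA, which encodes the Activin A chain, measured 0.605, 1.04, and 1.75 CPM against 34.7 to 82.0 (-5.60 ± 0.36, adjusted p = 2.71e-09), EOMES, a target of Nodal, fell by 6.41 ± 0.67 (adjusted p = 1.1e-06), and FST, an Activin antagonist, by 1.40 ± 0.09 (adjusted p = 1.99e-09). NODAL itself was not called (0.02, adjusted p = 0.963). Notch genes fell in 5 of 14 cases and rose in 2, with the target HES1 at -2.97 ± 0.22 (adjusted p = 1.3e-08) and the ligand DLL1 at 3.77 ± 0.58 (adjusted p = 8.63e-05). BMP genes rose in 2 of 11 cases and fell in 3, ID1 rising by 0.80 ± 0.16 (adjusted p = 0.000943) and ID3 falling by 1.24 ± 0.22 (adjusted p = 0.00033), although both are BMP targets. STAT3 targets rose in 4 of 14 cases and fell in 4. Direct Wnt targets were largely untested, with 1 of 9 higher and 1 lower, and AXIN2, a feedback inhibitor of the pathway, rose by 1.69 ± 0.28 (adjusted p = 0.000153). Of 8 DNA methylation genes 2 rose and 3 fell, with a median of -0.42, beside 11.1% of all genes higher and 15.1% lower. TET3, a demethylase, rose by 1.20 ± 0.17 (adjusted p = 3.26e-05). UHRF1, a cofactor of maintenance methylation, fell (log2 fold change -1.08 ± 0.11, adjusted p = 5.35e-07), as did DNMT3A by 0.78 ± 0.08 and DNMT1 by 0.69 ± 0.08 (adjusted p = 9.74e-07 and 6.7e-06).

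Cell cycle, death, and lineage genes are given beside the 11.1% of all genes that were higher and the 15.1% that were lower. Among G1-S cyclins and CDKs 6 of 14 fell and 0 rose, and of 8 CDK inhibitors 1 rose, which was CDKN1B, the CDK inhibitor p27 (1.13 ± 0.29, adjusted p = 0.00667). In the BCL2 family 4 of 15 rose, all of them death-promoting (HRK, BCL2L11, PMAIP1, and BMF), and 4 fell, namely the survival genes MCL1 and BCL2L1 and the death-promoting BOK and BID. HRK rose by 2.64 ± 0.45 (adjusted p = 0.000208). MCL1, and CCND1 among the cyclins that fell, were already counted as MEK-ERK feedback and target genes. The call of BMF was lost without E-NHSM library 1 (0.80) that of BCL2L1 without E-NHSM library 1 (-0.53) or 3 (-0.46) and against letter J alone (-0.33), and that of BID against letter J alone (-1.0). The p53 targets rose in 2 of 20 cases and fell in 3, with SESN2, already counted as an ATF4 target, among those that rose. Interferon-stimulated genes rose in 3 of 14 cases and fell in 1. Of the lineage lists, neural markers were lower in 4 of 11 cases and higher in 1, neural crest markers lower in 2 of 8 and higher in 1, mesoderm markers lower in 3 of 6, trophoblast and amnion markers lower in 3 of 8, endoderm markers lower in 1 of 8, and germ cell markers higher in 1 of 8. NES, nestin, fell from 2401 ± 136 to 1272 ± 70.0 CPM (-0.92 ± 0.06, adjusted p = 2.06e-09). GATA6, an endoderm factor, was at 0 in E-NHSM cells and 0 to 7.25 CPM in primed cells (adjusted p = 0.0554, and called lower without any 1 of the K libraries, against letter J alone, with no filter, and with all 8 groups in one fit), SOX17 was too low to be tested, and KIT, a receptor of germ cells, rose by 1.29 ± 0.25 (adjusted p = 0.00093).

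The largest changes were ranked among called genes with an average log2 CPM of at least 3 and no overlap between the groups. Ranks follow the estimated log2 fold change, which is imprecise where a group is near 0. Besides EGR3, S100A4, MMP1, EGR4, ARC, and INHBA, the 12 largest falls were those of ARHGAP36 (-6.21), ARHGAP24 (-6.15), VSTM2A (-5.91), CYP26A1, which degrades retinoic acid (-5.70), ANXA1, an annexin (-5.61), and EDN1, endothelin 1 (-5.27). CYP26A1 measured 2.19, 0.819, and 1.11 CPM in E-NHSM cells against 36.8 to 101 in primed cells (adjusted p = 3.11e-09). The 12 largest rises were DOC2B, a calcium sensor of exocytosis (5.88), CUZD1 (5.37), G0S2, an inhibitor of lipolysis (4.68), GADD45G, a stress-induced growth inhibitor (4.21), CTSV, the lysosomal protease cathepsin V (4.10), A2M, a broad protease inhibitor (4.05), MTL5 (3.87), EBF2, a transcription factor (3.84), GLRX, glutaredoxin (3.54), FOXB1, a forkhead factor (3.51), ANXA10 (3.47), and CFAP43, an axonemal protein (3.21). DOC2B measured 63.6, 77.2, and 61.4 CPM against 0 to 2.10 (± 0.39 SE, adjusted p = 4.43e-09). CTSV measured 235, 228, and 248 CPM against 8.93 to 19.1, and A2M 209, 197, and 208 against 5.68 to 17.5, both at an adjusted p of 1.76e-10.

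TL-CDK8i is a protocol with tamoxifen-activated STAT3-ER T2 and, per the study, an inhibitor of CDK8 and CDK19. It was the other reprogrammed group with a high POU5F1 level, 494 ± 93.8 against 1348 ± 29.7 CPM in E-NHSM cells (log2 fold change 1.45 ± 0.11, adjusted p = 1.75e-07, n = 3 each). The groups differed in 29.0% of 13651 genes in the higher and 30.8% in the lower direction, and the E-NHSM libraries are the same as above. MEK-ERK feedback genes were lower in E-NHSM cells in 46 of 55 cases and higher in 3, with a median of -2.37. DUSP6 averaged 35.3 ± 10.3 CPM against 389 ± 60.7 (-3.47 ± 0.18, adjusted p = 4.92e-09), EGR1 38.5 ± 4.22 against 137 ± 26.0 (-1.83 ± 0.14, adjusted p = 1.71e-07), and SPRY2 went the other way (0.40 ± 0.16, adjusted p = 0.043), while MYC was not called (-0.08 ± 0.10, adjusted p = 0.516). Matrix genes were lower in 63 of 81 cases, with COL1A1 at 191 ± 13.0 against 7246 ± 1001 CPM. Genes of oxidative phosphorylation were higher in 52 of 66 cases, with a median of 0.68, and cytosolic ribosomal proteins in 70 of 74. ATF4 targets were higher in 12 of 24 cases and lower in 7. ASNS was higher (1.57 ± 0.07, adjusted p = 1.77e-09), SLC1A4 lower (-1.13 ± 0.09, adjusted p = 2.11e-07), and TRIB3, at 66.1 ± 11.1 against 55.0 ± 3.64 CPM, was not called (adjusted p = 0.0982).

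**Figure D5:**
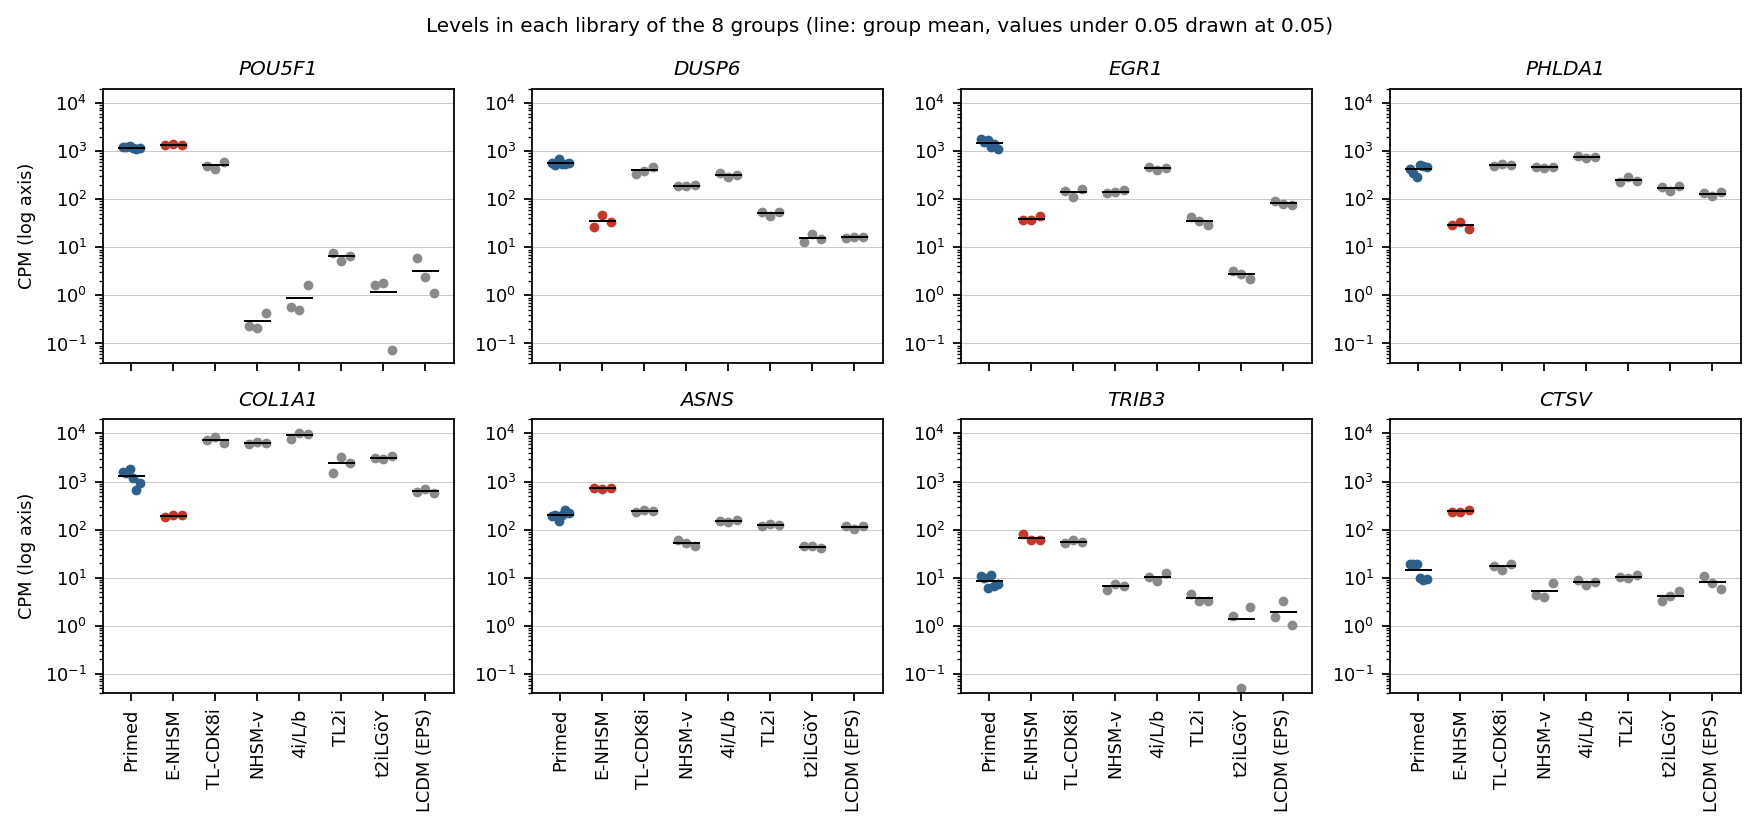
CPM on a log axis, after scaling over all 27 libraries, of 8 genes in each library of the 8 groups. Dots are libraries, blue for primed and red for E-NHSM cells, lines are group means, and values under 0.05 are drawn at 0.05. DUSP6 averages 35.8 CPM in E-NHSM cells and 15.5 in t2iLGöY cells, whereas PHLDA1 is lowest, and ASNS and CTSV highest, in E-NHSM cells.

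Across all 8 groups, scaled together, the E-NHSM levels of feedback genes were low but not always the lowest. These levels are given as a description, without a test. DUSP6 averaged 35.8 ± 10.5 CPM in E-NHSM cells, near TL2i at 51.6 ± 5.55, whose libraries overlapped with it, and above LCDM (EPS) at 16.1 ± 0.687 and t2iLGöY at 15.5 ± 3.04. EGR1 averaged 39.0 ± 4.25 CPM in E-NHSM cells and 35.8 ± 6.62 in TL2i cells, with overlapping libraries, and 2.73 ± 0.483 in t2iLGöY cells. PHLDA1 was lowest in E-NHSM cells, at 29.0 ± 5.18 CPM against 131 ± 11 in the next group, LCDM (EPS). COL1A1 was lowest in E-NHSM cells too, at 194 ± 13.3 CPM against 629 ± 67.2 in LCDM (EPS). CTSV averaged 241 ± 9.87 CPM in E-NHSM cells, and no library of another group exceeded 19.4. ASNS averaged 718 ± 25.0 CPM, with TL-CDK8i next at 243 ± 9.06. POU5F1 averaged 1366 ± 31.7 CPM in E-NHSM, 1182 ± 67.0 in primed, and 502 ± 95.1 in TL-CDK8i cells, and at most 6.44 ± 1.28 in the other 5 groups.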

How the data were processed

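Directional mRNA libraries were prepared, and per the submitters' processing notes the reads passed through bcl2fastq, cutadapt, HISAT2, and HTSeq. Versions, genome build, and annotation are not given in the sources used here. The authors deposited raw counts of reads per gene symbol, 17967 symbols in 27 columns, and 0 columns were left unassigned. E-NHSM and TL-CDK8i columns match single samples. Primed columns show the group only, and their letters J and K were not assigned to the label sets, which disagree between title and protocol for some libraries.

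TMM factors, CPM, and the quasi-likelihood test came from edgeR 4.0.16, run with limma 3.58.1 in R 4.3.3. Each test was fitted on the groups compared, on genes kept by filterByExpr. P-values were adjusted by the Benjamini-Hochberg method across all tested genes, and genes with an adjusted p under 0.05 were called. Standard errors equal the size of the fold change over the square root of F. Alternatives were DESeq2 1.42.0 and the settings named in the closing section. The procedure was tested on simulated data. Replicates of a group differed beyond sampling noise, with chi-square values of at least 8.20 per gene in E-NHSM, primed, and TL-CDK8i cells.

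The members and gene lists were chosen with earlier results of these data known. The ribosomal and proteasome lists and the comparison of primed letters J and K were added after seeing the data. The text names every MEK-ERK feedback gene, the genes the study names in rhesus cells, the 12 largest rises and falls with an average log2 CPM of at least 3 and no overlap, and up to 4 called members per list and direction. Other genes, such as FN1, MAP2K1, FGF2, OTX2, NODAL, PRRX1, LOX, KLF17, DPPA5, and NR4A3, were named after their values were seen. XIST was not analysed here, and some items are not reported here. Counts limit precision: 3 counts over the group correspond to 0.0511 CPM in E-NHSM and 0.0472 CPM in primed cells.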

Additional observations from a re-analysis of the deposited data

Results flagged for a closer look

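In the 6 primed libraries, 1 library stood far from the others for 11 of the 197 genes examined, and chance sets apart about 1 in 20 such groups. These are values without an explanation. Primed library J3 stood apart for DUSP6 at 691 CPM, with the others at 519 to 554, for GATA6 at 7.25 CPM, for KLF4 at 2.42 CPM, and for SHMT2 at 137 CPM, below the others at 173 to 194. Primed library J2 stood apart for CLDN6 at 522 CPM, with the others at 452 to 472, for SOX17 at 2.46 CPM, and for EREG at 0.214 CPM. Library J1 stood apart for DPPA5 at 0.774 CPM with all others at 0. Library K1 stood apart for ANXA1 at 34.7 CPM, with the others at 7.06 to 14.6, for GDF15 at 24.4 CPM, and for PCOLCE at 2.11 CPM, below the others at 6.08 to 7.88. The E-NHSM group, with 3 libraries, was not examined in this way.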

How the results depend on the processing

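Depth limits the low end, and groups at 0 are given as bounds. The direction of the calls shared between edgeR's main setting and each alternative was opposite for 0 genes. With all 8 groups in one fit, 5255 genes differed, 2444 of them higher in E-NHSM cells. Requiring also a log2 fold change of at least 1 in size left 1209 genes (447 higher, 762 lower), with 14 matrix remodelling, 10 contractile, 2 oxidative phosphorylation, 3 glycolysis, 9 ATF4, 4 serine and one-carbon, and 3 fatty acid synthesis members, and 3809 genes against TL-CDK8i (1364 higher, 2445 lower). In these settings fewer genes can pass by construction or more libraries enter the fit. Leaving out 1 library gave 2482 to 3987 genes against primed cells, 977 to 1777 higher and 1505 to 2210 lower, with 39 to 42 MEK-ERK feedback, 34 to 41 matrix, 19 to 25 remodelling, and 24 to 40 oxidative phosphorylation members, and 7080 to 7990 genes against TL-CDK8i. Other planned settings gave 3841 genes with DESeq2, 3592 with upper-quartile normalization, 3473 with no filter, 3472 with at least 10 counts in every library, 3403 after thinning to the smallest total, 3407 against primed letter J, and 4616 against letter K. MEK-ERK feedback members called lower numbered 36 to 43 over all of these. For 190 of the named genes that were tested, 3314 of 3383 values under these settings kept their direction and their side of the threshold. Of the others, 45 lost the call, 24 gained one, and 0 reversed. Where a setting changed a value, the cause was not tested.

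Libraries that share a number did not deviate together across genes (r = -0.013, -0.029, and -0.020 between E-NHSM and the mean of both primed letters), so the numbers do not pair the samples. The replicate block gave 3171 genes (1348 higher, 1823 lower) against primed cells, with 42 MEK-ERK feedback members lower, and 7860 against TL-CDK8i.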
